A study of Mus musculus with 6 samples.

Results

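The Cyp2d family of mouse cytochrome P450 genes was examined in livers of mice given esculetin or vehicle. Its members were taken by name from the count table through their Ensembl identifiers, and 9 genes of 55357 were found, Cyp2d9, Cyp2d10, Cyp2d11, Cyp2d12, Cyp2d13, Cyp2d22, Cyp2d26, Cyp2d34 and Cyp2d40. Cytochrome P450 enzymes are haem proteins of the endoplasmic reticulum that insert oxygen into steroids, fatty acids and drugs, with electrons delivered by the reductase Por. The Cyp2d subfamily is expanded in the mouse, whereas humans carry a single functional gene, CYP2D6, which metabolizes many drugs in the liver. Cyp2d9 hydroxylates testosterone and is known as a male-biased liver gene under the control of pituitary growth hormone.

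The study asked how esculetin, a plant coumarin, acts on lipid handling after a lipid-rich meal. Liver RNA was sequenced from WT C57BL6/J male mice, 8 to 9 weeks old, in 3 libraries with vehicle (2.5% Tween-80) and 3 with esculetin given in it. Both groups were gavaged daily for 7 days, received a control diet with 10% of kcal from fat for 4 days, and then a high-fat diet (HFD) with 60% of kcal from fat for 3 days. No library from mice kept on the control diet was analysed here. A library held the RNA of a pair of mice, so differences between single animals were not measured. The labels give the dose as 180 mg/kg/d in one field and as 90 mg/kg/d in another, and no dose is attached to the esculetin group here.

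Library totals ran from 27957713 to 34920922 counts, and the 3 esculetin libraries were the deepest. CPM here are TMM-scaled read counts relative to the library total, whose factors ran from 0.979 to 1.02. Without these factors 3 counts equalled 0.0859 to 0.107 CPM. The tissue label was checked with 8 hepatocyte markers, Alb, Ttr, Apoa1, Apob, Serpina1a, Tat, Tdo2 and Fah, none of which was at 0 counts. They summed to 87977 to 92103 CPM with vehicle and to 83436 to 91589 CPM with esculetin. None of the 8 passed the thresholds for a call, and Fah, an enzyme of tyrosine breakdown, had the lowest p-value (log2 fold change 0.20, adjusted p = 0.321 by edgeR). The 7 bile duct markers summed to 51.4 to 91.0 CPM with vehicle and to 38.5 to 52.9 CPM with esculetin, and Spp1, a secreted phosphoprotein, was called lower. Summed macrophage, endothelial, stellate and lymphoid or granulocyte markers overlapped between the groups, with 0 of 10, 0 of 8, 1 of 8 (Des, higher) and 2 of 7 tested (Cd79a and S100a9, higher) called. No marker of these lists was at 0 counts in all libraries. Whether shifts in cell types had a part in the values of the Cyp2d genes was not tested, and in bulk RNA fewer cells and less RNA per cell cannot be told apart.

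All members lie in 1 cluster of 423.8 kb on chromosome 15 (GRCm39, chr15:82254727-82678509), and GENCODE annotates each as protein coding. In the order of their coordinates these are Cyp2d22 (chr15:82254727-82264597), Cyp2d11 (chr15:82273355-82278223), Cyp2d10 (chr15:82284102-82291404) and Cyp2d9 (chr15:82317638-82341046), then Cyp2d12 (chr15:82439246-82444604) and Cyp2d34 (chr15:82500166-82505172). Cyp2d13 (chr15:82520388-82526247), Cyp2d40 (chr15:82644031-82649336) and Cyp2d26 (chr15:82674300-82678509) complete the cluster. Cyp2d9 and Cyp2d12 lie on the plus strand and the other members on the minus strand. The GENCODE transcript with the lowest number codes over 1512 bases in Cyp2d9, Cyp2d10, Cyp2d11, Cyp2d12 and Cyp2d34, and over 1500 bases in Cyp2d22 and Cyp2d26. It codes over 1014 bases in Cyp2d40 and 228 bases in Cyp2d13, which RefSeq lists as a transcribed pseudogene. The coding sequence of Cyp2d9 was 92.5% identical to that of Cyp2d10, 93.3% to Cyp2d11, 92.1% to Cyp2d12 and 89.6% to Cyp2d34. It was 81.9% identical to that of Cyp2d26 and 78.7% to that of Cyp2d22.

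The authors' handling of reads that fit several genes is not given in the sources used here. Stretches of 150 bases, the length of a read, were therefore compared between the transcripts of these genes and those of all other Cyp genes. The share found letter for letter in another gene was 5.62% for Cyp2d11, all of it in Cyp2d10, 1.04% for Cyp2d10, 0.398% for Cyp2d9 and 0.167% for Cyp2d12. It was 0 for the other members. The few counts of Cyp2d11 are the most uncertain for this reason.

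Promoters of 300 bases, from 250 bases before the start of transcription to 50 after it, were held by the RefSeq table (GRCm38.p6) for 5 of the 9 members. Those of the 3 most abundant members and of the scarce Cyp2d11 are shown 5′ to 3′ so that closely and distantly related promoters can be read beside their RNA levels. The capitals mark CTTTATAAGG, which holds a TATA-box-like core and was the longest run of letters shared by all 5 promoters. On GRCm38.p6 they lie at chr15:82452127-82452426 (plus strand) for Cyp2d9, and on the minus strand at chr15:82393973-82394272 for Cyp2d11, chr15:82407145-82407444 for Cyp2d10 and chr15:82794196-82794495 for Cyp2d26.
Cyp2d9: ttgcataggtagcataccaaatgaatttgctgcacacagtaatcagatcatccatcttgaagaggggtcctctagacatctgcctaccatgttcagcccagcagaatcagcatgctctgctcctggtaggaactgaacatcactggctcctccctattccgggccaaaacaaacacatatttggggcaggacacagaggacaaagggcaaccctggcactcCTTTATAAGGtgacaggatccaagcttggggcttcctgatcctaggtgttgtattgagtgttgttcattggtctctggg
Cyp2d11: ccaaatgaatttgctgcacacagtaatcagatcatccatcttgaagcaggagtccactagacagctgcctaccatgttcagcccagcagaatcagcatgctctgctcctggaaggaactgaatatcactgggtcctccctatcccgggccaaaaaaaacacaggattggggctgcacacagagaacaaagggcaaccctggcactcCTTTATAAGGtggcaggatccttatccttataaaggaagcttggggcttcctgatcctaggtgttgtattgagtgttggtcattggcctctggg
Cyp2d10: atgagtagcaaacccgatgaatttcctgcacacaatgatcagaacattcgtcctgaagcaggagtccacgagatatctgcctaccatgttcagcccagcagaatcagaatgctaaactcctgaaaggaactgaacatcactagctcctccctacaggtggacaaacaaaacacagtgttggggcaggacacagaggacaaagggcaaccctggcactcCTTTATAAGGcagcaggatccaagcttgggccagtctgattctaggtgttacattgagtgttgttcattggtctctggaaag
Cyp2d26: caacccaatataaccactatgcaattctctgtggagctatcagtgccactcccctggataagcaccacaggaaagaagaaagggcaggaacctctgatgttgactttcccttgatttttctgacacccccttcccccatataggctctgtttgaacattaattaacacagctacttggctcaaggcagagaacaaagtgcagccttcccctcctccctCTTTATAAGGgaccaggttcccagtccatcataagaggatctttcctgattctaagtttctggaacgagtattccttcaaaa

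The capital stretch began 29 bases before the start in Cyp2d9, 32 before it in Cyp2d10 and Cyp2d26, 44 in Cyp2d11 and 92 in Cyp2d40. It was found on either strand in 32 of 32851 promoters of the table, or 0.0974%. Without Cyp2d26 the shared run grew to CACTCCTTTATAAGG, present in 4 promoters (0.0122%), which are those of Cyp2d9, Cyp2d10, Cyp2d11 and Cyp2d40. The Cyp2d9 promoter was 94.0% identical to that of Cyp2d11 over 284 aligned bases, 85.1% to that of Cyp2d10 and 65.9% to that of Cyp2d26. On both strands, none of the 5 held the STAT5 motif TTCNNNGAA (8.3% of all promoters), the HNF4 motif CAAAGTCCA (0.475%) or the C/EBP motif TTGCNNAA (10.8%). The antioxidant response core TGACNNNGC (12.4%) and the xenobiotic response core GCGTG (32.4%) were absent from these windows as well. An absent motif says only that these letters are not in these 300 bases.

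The liver expressed the members at very unequal levels. Levels were compared between genes as CPM per kilobase of merged exons, in the vehicle libraries first (mean ± SD, n = 3). Cyp2d9 stood at 334.9 ± 28.5 and Cyp2d26 at 329.1 ± 11.2, and these neighbours overlapped. Cyp2d10 followed at 103.9 ± 5.45 and Cyp2d13 at 79.9 ± 9.94, each apart from its neighbours in every vehicle library. Cyp2d22, the member usually compared with human CYP2D6, stood at 37.1 ± 2.74 and overlapped Cyp2d40 at 32.0 ± 4.08. The remaining members were scarce on the same scale, with 0.515 ± 0.222 for Cyp2d11, 0.106 ± 0.0786 for Cyp2d12 and 0.0261 ± 0.015 for Cyp2d34. Cyp2d9 and Cyp2d11 thus differed widely in level although their promoter windows were the most alike. In the esculetin libraries Cyp2d26 came first at 380.3 ± 10.8 per kilobase and Cyp2d9 second at 283.4 ± 16.5, without overlap, and the other members kept their ranks on this length. This order depends on the length assigned to a gene. With the longest transcript in place of the merged exons, Cyp2d9 and Cyp2d26 stood at 465.5 ± 39.7 and 396.9 ± 13.5 with vehicle and no longer overlapped. With the transcript of the lowest number, chosen after the values were seen, they stood at 555.8 ± 47.4 and 407.4 ± 13.8 with vehicle, again without overlap, and at 470.3 ± 27.4 and 470.8 ± 13.4 with esculetin. On that length Cyp2d10 moved up from 103.9 to 329.7 in the vehicle group. Cyp2d22, at 76.1 ± 1.34, then ranked above Cyp2d13, at 67.2 ± 9.77, in the esculetin group.

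**Figure D1:**
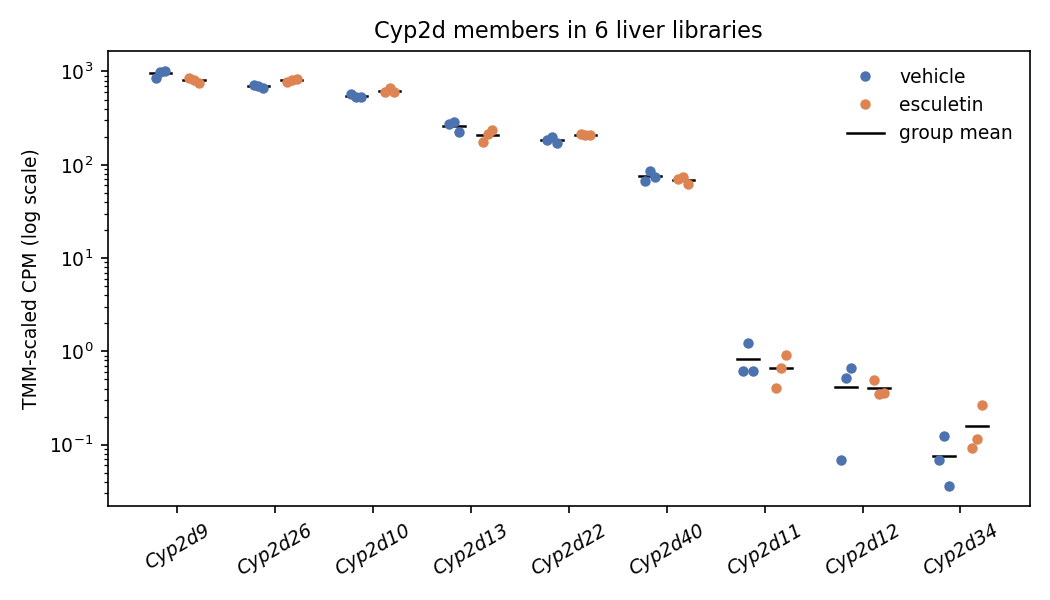
Level of each Cyp2d member in each of the 6 liver libraries, in TMM-scaled CPM on a log axis, with dots for libraries and bars for the group means of 3. Cyp2d9, Cyp2d26 and Cyp2d10 lie between 526.9 and 1000.3 CPM, while Cyp2d11, Cyp2d12 and Cyp2d34 lie at or below 1.23 CPM.

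Between the groups, the abundant members differed in opposite directions and by small amounts, and no member had an adjusted p-value under 0.05. Cyp2d9, the male-biased testosterone hydroxylase, was at 858.0, 996.4 and 1000.3 CPM with vehicle and at 849.1, 810.6 and 755.6 CPM with esculetin. All esculetin libraries were below all vehicle libraries, although the first library of each group was close to the other. The fitted difference was a log2 fold change of -0.24 (SE 0.0891, 95% interval -0.44 to -0.04), a difference of -15.4%, with an adjusted p of 0.337 by edgeR.

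Cyp2d26 was at 707.9, 706.0 and 666.2 CPM with vehicle and at 778.8, 800.9 and 824.5 CPM with esculetin. The esculetin libraries were all higher, and replicates were close in both groups. Its log2 fold change was 0.21 (SE 0.0730, 95% interval 0.05 to 0.37), or 15.6% higher, with an adjusted p of 0.309 by edgeR. Cyp2d10 was at 578.9, 531.9 and 526.9 CPM with vehicle and at 601.4, 667.2 and 604.5 CPM with esculetin, again without overlap. Its log2 fold change was 0.19 (SE 0.0805, 95% interval 0.01 to 0.37; adjusted p = 0.388 by edgeR).

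Cyp2d22 was at 185.9, 196.2 and 169.3 CPM with vehicle and at 214.4, 207.0 and 210.9 CPM with esculetin. The esculetin libraries were the higher ones and were close together, and the log2 fold change was 0.20 (SE 0.0784, 95% interval 0.02 to 0.37; adjusted p = 0.368 by edgeR). Cyp2d13, whose RefSeq entry is a transcribed pseudogene, was at 271.5, 284.6 and 223.3 CPM with vehicle and at 174.6, 211.3 and 234.2 CPM with esculetin. The groups overlapped through the third library of each. Its log2 fold change of -0.33 (SE 0.124, 95% interval -0.61 to -0.05; adjusted p = 0.345 by edgeR) was the lowest of the family.

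Cyp2d40 was at 66.4, 85.5 and 74.2 CPM with vehicle and at 71.0, 74.0 and 63.0 CPM with esculetin, which overlapped, and its log2 fold change was -0.12 (95% interval -0.36 to 0.11; adjusted p = 0.698 by edgeR). The scarce members showed no detectable difference at this depth. Cyp2d11 had 18, 40 and 17 counts with vehicle and 13, 23 and 31 with esculetin (log2 fold change -0.31, 95% interval -1.3 to 0.68). Cyp2d12 had 2, 17 and 18 counts with vehicle and 16, 12 and 12 with esculetin (log2 fold change -0.05, 95% interval -1.48 to 1.37). Cyp2d34 had 2, 4 and 1 counts with vehicle and 3, 4 and 9 with esculetin, and the filter on low counts left it out of the test.

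In a fit of 14433 genes, a call needed a fold change over 1.5 together with a p-value under 0.05 before adjustment. Of the 8 members tested 0 were called by edgeR, where 3.13% of all genes were, and 0 by DESeq2 or limma-voom. At an adjusted p-value under 0.05 the count was also 0 in each of the 3 tools, against 0.0416% of all genes by edgeR. An unadjusted p-value under 0.05 at any fold change was reached by 5 of 8 members in each tool, where 11.9% of all genes reached it by edgeR. These were Cyp2d10, Cyp2d22 and Cyp2d26, which were higher with esculetin (6.53% of all genes), and Cyp2d9 and Cyp2d13, which were lower (5.32%). The count was 1 without the third vehicle library, 2 to 4 without any other library, and 3 with scaling to library totals. The background share was 19.9% among the 2569 genes with a mean of at least 50 CPM, which is where these 5 members lie. The CPM of the groups did not overlap for 4 of 8 members, as they did not for 17.4% of all genes. The median log2 fold change was -0.09 over the members tested (range -0.33 to 0.21) and -0.01 over all genes.

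**Figure D2:**
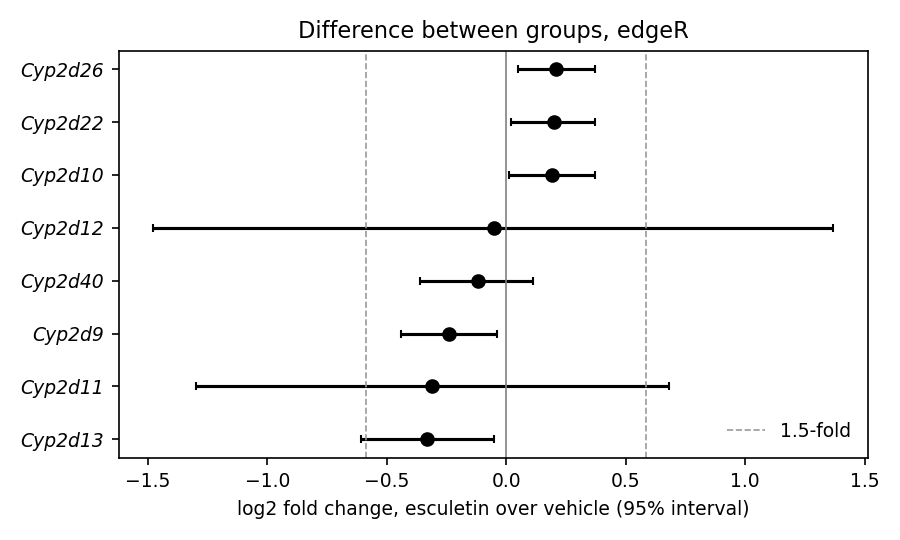
Log2 fold change, esculetin over vehicle, of the 8 tested members with 95% intervals from edgeR. The dashed lines mark a fold change of 1.5, inside which every point lies. The intervals of Cyp2d26, Cyp2d22 and Cyp2d10 lie above 0 and those of Cyp2d9 and Cyp2d13 below it, while the widest belong to the scarce Cyp2d11 and Cyp2d12.

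The amount of Cyp2d RNA was close in both groups, while the shares of Cyp2d9, Cyp2d10, Cyp2d22 and Cyp2d26 in it did not overlap between them. Of the shares only that of Cyp2d9 was tested. Summed over the 9 members, the family made up 2669, 2803 and 2662 CPM with vehicle and 2690, 2772 and 2694 CPM with esculetin. The means were 2711 ± 79.3 and 2719 ± 46.2 CPM (SD, n = 3), 0.285% apart, and the groups overlapped. The family held 0.261% to 0.287% of all counts in a library. Its 3 most abundant members gave 79.7% to 82.9% of those counts.

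The share of Cyp2d9 in the family's counts was 32.1%, 35.6% and 37.6% with vehicle and 31.6%, 29.2% and 28.0% with esculetin. The groups did not overlap, and the means of 35.1% ± 2.75 and 29.6% ± 1.79 (SD, n = 3) gave a difference of -5.48 percentage points, esculetin minus vehicle. The exact two-sided permutation test over the 6 libraries gave p = 0.1, the smallest p-value that 3 against 3 libraries can reach, so this design could not pass a threshold of 0.05. The share of Cyp2d26 was 26.5%, 25.2% and 25.0% with vehicle and 28.9%, 28.9% and 30.6% with esculetin. That of Cyp2d10 was 21.7%, 19.0% and 19.8% against 22.4%, 24.1% and 22.4%. Both were higher in every esculetin library, as was the share of Cyp2d22, with means of 6.77% ± 0.359 and 7.76% ± 0.259. The shares of Cyp2d13 (9.57% ± 1.02 and 7.6% ± 1.1) and Cyp2d40 (2.78% ± 0.282 and 2.55% ± 0.184) overlapped between the groups. Shares add to a fixed total, so a lower share of one member raises the others.

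Cyp2d9 gave 1.21, 1.41 and 1.5 counts for each count of Cyp2d26 with vehicle, and 1.09, 1.01 and 0.917 with esculetin. This ratio, chosen after the values were seen and not tested, is free of the library scaling and did not overlap between the groups. Across the 6 libraries log2 CPM of Cyp2d9 had Pearson correlations of -0.90 with Cyp2d26, -0.84 with Cyp2d10 and -0.71 with Cyp2d22. Its correlation was 0.77 with Cyp2d40 but only 0.33 with Cyp2d13. Cyp2d26 had correlations of 0.91 with Cyp2d22 and 0.84 with Cyp2d10. These values describe 6 libraries that share their group difference and their scaling.

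**Figure D3:**
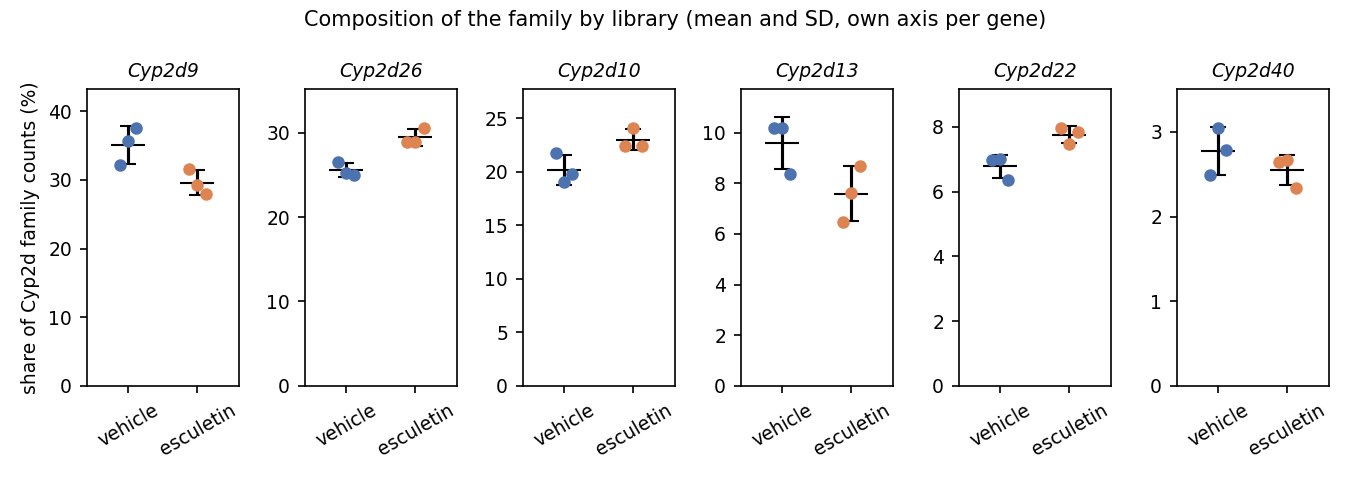
Percent of the family's counts that came from each of the 6 abundant members, with dots for libraries and bars for the mean and SD of 3 libraries per group. Each gene has its own axis from 0. The mean of Cyp2d9 is 35.1% with vehicle and 29.6% with esculetin, and that of Cyp2d26 is 25.6% and 29.5%.

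By position, the members higher with esculetin were not a block. Cyp2d22 and Cyp2d10 lie at the left end of the cluster and Cyp2d26 at its right end, with Cyp2d9, Cyp2d13 and Cyp2d40 between them. The cluster also holds 9 Cyp2d pseudogenes, of which 5 passed the filter on low counts. All 5 had log2 fold changes under 0. Cyp2d37-ps, the most abundant, was at 78.9, 97.7 and 82.1 CPM with vehicle and at 70.3, 64.8 and 72.9 CPM with esculetin (log2 fold change -0.31, adjusted p = 0.255 by edgeR). The groups did not overlap, but the fold change stayed under the threshold. Cyp2d41-ps was called lower (log2 fold change -1.65, SE 0.478, adjusted p = 0.242 by edgeR), with 25, 107 and 57 counts against 29, 20 and 17, and its groups overlapped in CPM. By DESeq2, Cyp2d36-ps was called lower too. The pseudogenes together summed to 101.3, 127.4 and 103.7 CPM with vehicle and to 87.6, 80.5 and 94.2 CPM with esculetin.

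Inside the cluster or within 200 kb of it, 43 other genes were annotated, 9 were tested and 0 were called by edgeR, DESeq2 or limma-voom, with 2 at an unadjusted p-value under 0.05 by edgeR. These were Smdt1, a regulator of the mitochondrial calcium uniporter (log2 fold change 0.26, adjusted p = 0.246), and Ndufa6, a subunit of respiratory complex I (0.20, adjusted p = 0.363).

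**Figure D4:**
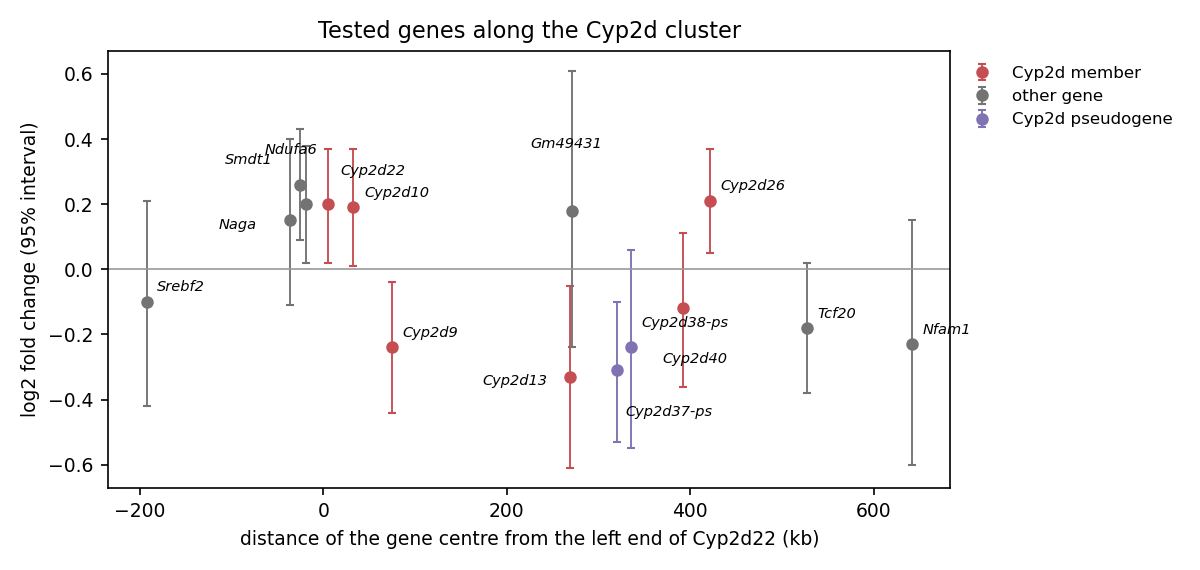
Log2 fold change, esculetin over vehicle, of tested genes along the cluster with 95% intervals from edgeR, against the distance in kb of the gene's centre from the left end of Cyp2d22. The tested genes with the widest intervals (Cyp2d11, Cyp2d12, Cyp2d35-ps, Cyp2d36-ps, Cyp2d41-ps, Cenpm and Gm20324) are not drawn. Cyp2d22, Cyp2d10 and Cyp2d26 lie above 0 and the members and pseudogenes between Cyp2d10 and Cyp2d26 lie below it.

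The enzymes that supply P450 proteins with electrons and haem were read from a list of 17 genes, all tested. None was called, in edgeR, DESeq2 or limma-voom. An unadjusted p-value under 0.05 by edgeR was reached by 5, where 11.9% of all genes reached it. The median log2 fold change of the 17 was -0.01, equal to that of all genes. As 0 passed the rule for named genes, those 5 were named after their values were seen. Por, which passes electrons from NADPH to P450 enzymes, was at 203.3 ± 24.9 CPM with vehicle and 289.6 ± 15.8 CPM with esculetin (SD, n = 3). Its log2 fold change was 0.51 (SE 0.0981, adjusted p = 0.132 by edgeR). Pgrmc1, a haem-binding partner of P450 enzymes, had 0.39 (adjusted p = 0.152), Blvrb, a biliverdin and flavin reductase, 0.41 (adjusted p = 0.136), and Cyb5a, cytochrome b5, 0.32 (adjusted p = 0.172). Uros, an enzyme of haem synthesis, had -0.30 (adjusted p = 0.304). With DESeq2, 4 of the 17 reached an adjusted p-value under 0.05, as did 193 of all genes tested.

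Among 63 other P450 genes tested, 9 were called higher and 4 lower. Of the 9, Cyp2a4, Cyp2b9, Cyp2b10, Cyp2a21-ps and Cyp4f18 were at 0.117 to 0.327 CPM with vehicle and passed the filter on low counts largely through the esculetin group, so this count is not read against the share of all genes called (1.37% higher and 1.76% lower). Cyp2a5, a coumarin hydroxylase, rose from 379.1 ± 40.5 to 1268.7 ± 113.7 CPM (SD, n = 3), a log2 fold change of 1.74 (SE 0.105, adjusted p = 0.000267 by edgeR). Cyp2a4, Cyp2b10 and Cyp2a21-ps followed by p-value, with means of at most 5.61 CPM. Cyp2a4 and Cyp2a21-ps are near copies of Cyp2a5, so the reads given to them are uncertain. The log2 fold changes of the Cyp2d members tested lay between -0.33 and 0.21.

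Cyp2d9 is one of the genes that the male liver expresses more highly, and 25 others of this kind were tested. Of these 0 were called higher and 10 lower, where 1.37% and 1.76% of all genes were. The list was chosen with earlier results of these data known. The median log2 fold change of the 25 was -0.45, beside -0.24 for Cyp2d9. The CPM of the groups did not overlap for 5 of the 25, as they did not for 17.4% of all genes. Mup21, a major urinary protein, fell from 539.4 ± 102.9 to 332.2 ± 46.3 CPM (log2 fold change -0.70, adjusted p = 0.142 by edgeR). Serpina1e, a protease inhibitor, fell from 10368.7 ± 3170.0 to 4726.6 ± 1464.4 CPM (log2 fold change -1.13, adjusted p = 0.155 by edgeR). The complement gene C6 (-0.74, adjusted p = 0.161) and Elovl3, a fatty acid elongase (-0.70, adjusted p = 0.203), were also called lower, and 0 of the 25 had an adjusted p-value under 0.05 by edgeR, against 3 by DESeq2. Reads of the Mup and Serpina1 paralogs cannot be assigned with certainty. Of 23 female-biased genes 13 were tested, and 6 were called higher and 0 lower, a count that rests in part on genes scarce with vehicle. Cyp2a4, Cyp2b10, Cyp2b9 and Fmo2 had the smallest p-values. Fmo2, a flavin-containing monooxygenase, rose from 20.3 ± 2.35 to 36.1 ± 9.69 CPM (SD, n = 3). The 3 P450 genes were near the floor of 3 counts with vehicle, at means of 0.117 to 0.217 CPM, and passed the filter through the esculetin group, where they stood at 1.02 to 5.61 CPM, so no fold is given for them.

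Of 15 genes of the growth hormone and STAT5 pathway, which sets sex-biased liver expression, 13 were tested and 0 were called by edgeR, DESeq2 or limma-voom, with 1 at an unadjusted p-value under 0.05 by edgeR. Without the filter on low counts 3 were called, Bcl6 and Cish lower and Socs2 higher. With the filter their unadjusted p-values by edgeR were 0.0786 for Bcl6, 0.347 for Cish and 0.349 for Socs2. The CPM of the groups overlapped for each of them. Leaving out the filter also raised the number of all genes called from 452 to 776, so these calls are not read as a change in the pathway. Of 20 hepatocyte transcription factors 3 were called higher and 0 lower. Nr0b2, a bile acid-induced repressor, rose from 16.1 ± 4.74 to 31.1 ± 2.49 CPM (log2 fold change 0.95, adjusted p = 0.132 by edgeR). Cebpb (0.60, adjusted p = 0.175) and Cebpd (0.62, adjusted p = 0.393), regulators of the acute-phase response, were the others, and Cebpb was not called when counts were scaled to library totals, nor Cebpd by limma-voom. Of 15 pericentral genes, the zone in which many P450 genes are expressed, 2 were called lower, the Wnt targets Rnf43 (-0.78, adjusted p = 0.117 by edgeR) and Axin2 (-0.87, adjusted p = 0.172). Of 15 periportal genes 0 were called by edgeR, and 0 had an unadjusted p-value under 0.05 by edgeR, DESeq2 or limma-voom.

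The genes most like Cyp2d9 were taken from 7228 genes with a mean of at least 10 CPM by the Pearson correlation of log2 CPM over the 6 libraries. The highest were Cxxc1 (0.995), Mup9 (0.995), Masp1 (0.994), Epb41l4b (0.994) and Serpina1e (0.992). The lowest were Gm14539 (-0.996), Decr2 (-0.995), Aldh6a1 (-0.993), Entpd5 (-0.992) and Ndufa3 (-0.989). With so many genes and 6 points, values this near to 1 describe these libraries only. The log2 fold changes behind like patterns were unlike in size, from -0.16 for Epb41l4b to -1.13 for Serpina1e.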

How the data were processed

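Liver RNA was sequenced in 6 libraries, 3 per group. Per the submitters' processing notes, the authors aligned the reads with HISAT2 2.2.1 and counted them per gene with featureCounts. They deposited counts without normalization. The notes name GRCm39 and mm10, and the identifiers were read with GENCODE M39 of GRCm39, which named 54749 of 55357. Annotation release, strandedness and multimapping are not given in the sources used here, so antisense overlaps are uncertain. Replicates of a group differed by a chi-square per gene of 26.6 to 67.1, and none was a copy.

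Esculetin was tested against vehicle by quasi-likelihood in edgeR 4.0.16 (R 4.3.3; TMM, filterByExpr), with Benjamini-Hochberg adjustment over all 14433 genes tested. The biological coefficient of variation was 14.6%. CPM are TMM-scaled, and log2 CPM used a pseudocount of 0.5. Tried in its place were limma-voom (limma 3.58.1), DESeq2 1.42.0, other scalings, filters and fold thresholds, each library left out, other gene lengths, and the replicate number as a block. The gene test was tested on simulated data. The members and lists were chosen with earlier results of these data known. The call thresholds follow the methods of the study, which do not say whether p was adjusted. Named genes were the members, up to 4 called genes of a list by p-value, every hepatocyte marker, and the 5 genes most and 5 least like Cyp2d9. A result on a marker gene is not reported here. Promoters were aligned with Biopython 1.88. P-values measure the spread between libraries, each of pooled mice. Lengths of the lowest-numbered transcript and pseudogenes in the family total were added after the data were seen.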

Additional observations from a re-analysis of the deposited data

How the results depend on the processing

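The direction of Cyp2d9, Cyp2d10, Cyp2d13, Cyp2d22, Cyp2d26 and Cyp2d40 was the same under all alternatives run, and adjusted p-values of the members stayed at 0.0643 or above. The sign for the scarce members was not stable. The log2 fold change of Cyp2d11 ranged from -0.62 to 0.11 with 1 library left out, and was above 0 without the second vehicle library. That of Cyp2d12 was 0.11 with the replicate block and 0.38 with limma-voom, and ranged from -0.55 to 0.41 with 1 library left out. The number of members called was 0 under all alternatives except the one with no fold threshold, which called 5. The number of all genes called moved from 452 to 776 with no filter on low counts, 1711 with no fold threshold and 217 with a fold change over 2. Genes with an adjusted p-value under 0.05 moved from 6 to 477 with no filter, 193 with DESeq2 and between 2 and 45 when a library was left out, and 0 were members.

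The number of members with an unadjusted p-value under 0.05 moved from 5 to 3 with library totals, where Cyp2d10 and Cyp2d22 were lost. With 1 library left out it ranged from 1 to 4. It was 1 without the third vehicle library, 2 without the second vehicle or the third esculetin library, and 3 without the first or second esculetin library. The labels number the libraries of both groups alike, but the deviations of libraries with the same number were correlated by -0.104 to 0.0203, so the numbers were not taken as a pairing. With the replicate block the number was 3, again without Cyp2d10 and Cyp2d22, and 15 genes in all had an adjusted p-value under 0.05. The family total, esculetin against vehicle, ranged from -1.28% (library totals) to 2.0% and the difference in the share of Cyp2d9 from -6.95 to -4.23 percentage points. It was -5.02 with the pseudogenes in the total. The cause of these shifts was not tested.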
